A study of Mus musculus with 6 samples.

Results

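Imprinted genes are expressed mainly from the copy inherited from 1 parent, and 10 of them that lie outside the imprinted clusters of chromosomes 7 and 12 are described here in mouse embryonic stem cells (ESCs) kept in 2 media. They are Plagl1, Mest, Peg10, Sgce, Nnat, Impact, Zdbf2, Grb10, Igf2r and Airn, chosen by gene symbol and not by their values. All 10 were among the 53927 symbols of the deposited tables, and all 10 passed the filter on low counts that left 20422 genes for testing. The samples were 6 RNA-seq libraries of wild-type ESCs in serum-free N2B27 medium, 3 per group. Both groups received PD0325901, which blocks the kinase MEK, at 1 µM. The 2i group also received CHIR99021, an inhibitor of both GSK3 kinases, at 3 µM, and the BRD0705/PD03 group was given 8 µM of BRD0705, which prefers GSK3 alpha over its paralog. The labels name the cell line E14, an established male line, whereas the growth protocol speaks of ESCs of the hybrid B6D2F1 background grown on feeder cells. No label says that the libraries of a group came from separate cultures, so the p-values measure only how far these libraries scatter, possibly for technical reasons.

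The libraries held 16968959 to 51180228 counts. They did not all match the sex of the named line: 6 Y-linked genes summed to 310.5 to 331.7 CPM (counts relative to a common effective library size) in BRD0705/PD03 and to 9.54 to 11.1 CPM in 2i, and 6 of 6 were called higher in BRD0705/PD03. Over 566 expressed X-linked genes the median log2 fold change was -0.80, against 0.00 over 15142 autosomal genes. The 10 imprinted genes are autosomal, and without genes of chromosomes X and Y the same 8 of them were called. That fit leaves autosomal counts unchanged, so it cannot show whether the sex difference acts on these genes. The sex difference and the medium cannot be told apart in these samples. Nor can any difference in cell line, strain background or imprint state between the groups, which was not tested. General ESC genes were present in both groups, with Pou5f1 at 687 ± 6.29 CPM (SD, n = 3) in BRD0705/PD03 and 765 ± 54.9 CPM (SD, n = 3) in 2i. Pou5f1, picked for mention after its values were seen, was called lower in BRD0705/PD03 (log2 fold change -0.155). Most of the 8 ESC genes listed below differed more, with a median of -0.79.

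The parental copies of an imprinted gene are told apart by DNA methylation that is set in the germ line at a control region and kept through the genome-wide demethylation of the early embryo, with the help of the zinc-finger protein ZFP57 and its partner TRIM28. Plagl1, Mest, Peg10, Sgce, Nnat, Impact, Zdbf2 and Airn are known as paternally expressed genes, and Igf2r and Grb10 as maternally expressed ones in most tissues. Many imprinted genes act on growth, and cultured ESCs can lose or gain the methylation that marks them. The deposited counts do not separate the parental copies, so each value is the sum of both.

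Promoters are shown for genes on which the results turn: Plagl1, Nnat and Mest, which differed between the media, and Igf2r and Airn, which share a locus. Each line gives the 250 bases before a RefSeq gene start (GRCm38.p6), 5′ to 3′ on the strand of the gene, with CpG sites, the bases that DNA methylation acts on, in capitals. Genes with more than 1 RefSeq start are shown at the start named here.
Plagl1 (chr10:13090582-13090831, plus strand): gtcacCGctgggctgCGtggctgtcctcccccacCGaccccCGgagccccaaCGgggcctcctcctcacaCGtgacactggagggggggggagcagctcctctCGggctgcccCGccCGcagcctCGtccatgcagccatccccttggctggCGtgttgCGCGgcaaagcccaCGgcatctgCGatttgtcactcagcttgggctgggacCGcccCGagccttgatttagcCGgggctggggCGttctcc
Mest (chr6:30737800-30738049, plus strand): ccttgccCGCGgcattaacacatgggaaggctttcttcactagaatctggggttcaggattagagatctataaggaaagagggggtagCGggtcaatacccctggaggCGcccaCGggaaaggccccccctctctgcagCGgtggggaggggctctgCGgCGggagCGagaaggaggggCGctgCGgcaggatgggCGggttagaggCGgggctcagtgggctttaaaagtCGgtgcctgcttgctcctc
Nnat (chr2:157559828-157560077, plus strand): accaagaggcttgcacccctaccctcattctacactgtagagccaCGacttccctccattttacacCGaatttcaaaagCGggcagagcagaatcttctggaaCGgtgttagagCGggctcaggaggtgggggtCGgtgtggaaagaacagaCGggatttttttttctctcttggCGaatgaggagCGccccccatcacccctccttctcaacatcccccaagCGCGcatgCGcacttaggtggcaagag
Igf2r (chr17:12769707-12769956, minus strand): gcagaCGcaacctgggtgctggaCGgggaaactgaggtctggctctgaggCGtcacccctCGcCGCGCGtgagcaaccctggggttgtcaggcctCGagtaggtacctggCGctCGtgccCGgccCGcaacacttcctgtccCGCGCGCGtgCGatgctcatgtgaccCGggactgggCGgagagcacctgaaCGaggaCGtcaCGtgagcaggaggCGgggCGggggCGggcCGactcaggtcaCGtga
Airn (chr17:12741061-12741310, plus strand): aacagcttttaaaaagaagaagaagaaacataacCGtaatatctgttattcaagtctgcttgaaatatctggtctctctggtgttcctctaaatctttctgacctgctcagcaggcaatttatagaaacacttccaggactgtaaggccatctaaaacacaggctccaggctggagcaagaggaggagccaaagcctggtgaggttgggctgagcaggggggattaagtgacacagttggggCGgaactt

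The windows held 19 CpG sites for Plagl1, 14 for Mest, 12 for Nnat, 27 for Igf2r and 2 for Airn, and the median over all 32851 windows of this length in the RefSeq table was 6. As many CpG sites as in the Igf2r window were found in 8.56% of all windows, as many as in the Plagl1 window in 19.7% and as many as in the Airn window in 81.2%. The letters TGCCGC, which ZFP57 binds when their CpG is methylated, were searched on both strands, and each match holds 1 of the CpG sites counted. They occurred 1 time in the Plagl1 window, 2 times in the Mest window shown and 0 times in those of Nnat, Igf2r and Airn, and 8.68% of all windows held them. Grb10 and Zdbf2 also had windows. The window of an upstream Mest start (chr6:30733256-30733505) held 7 CpG sites and the motif 0 times. At the upstream start that RefSeq gives Zdbf2, the motif occurred 3 times, and at the downstream start 0 times. RefSeq windows matched 7 of the 10 genes. Each window covers only bases before a start, so it need not hold the methylated control region of its gene. Bases after the starts were not searched.

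Plagl1 differed most. It encodes a zinc-finger transcription factor that restrains cell proliferation and regulates other imprinted genes (chromosome 10, 13060504 to 13131694, plus strand, ENSMUSG00000019817.18). The BRD0705/PD03 libraries had 2.25, 2.98 and 2.85 CPM, and the 2i libraries had 83.6, 84.7 and 94.2 CPM. All 3 BRD0705/PD03 libraries lay below all 3 of 2i, and the mean was 32.5 times higher in 2i. The log2 fold change of BRD0705/PD03 over 2i was -5.02 ± 0.08 (SE), with an adjusted p of 5.95e-18 by edgeR's quasi-likelihood test with Benjamini-Hochberg adjustment over all genes, as for every adjusted p below. Among the 11488 tested genes that averaged 5 CPM or more, Plagl1 had the 36th lowest log2 fold change. The low level still rested on 73, 82 and 116 counts.

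**Figure D1:**
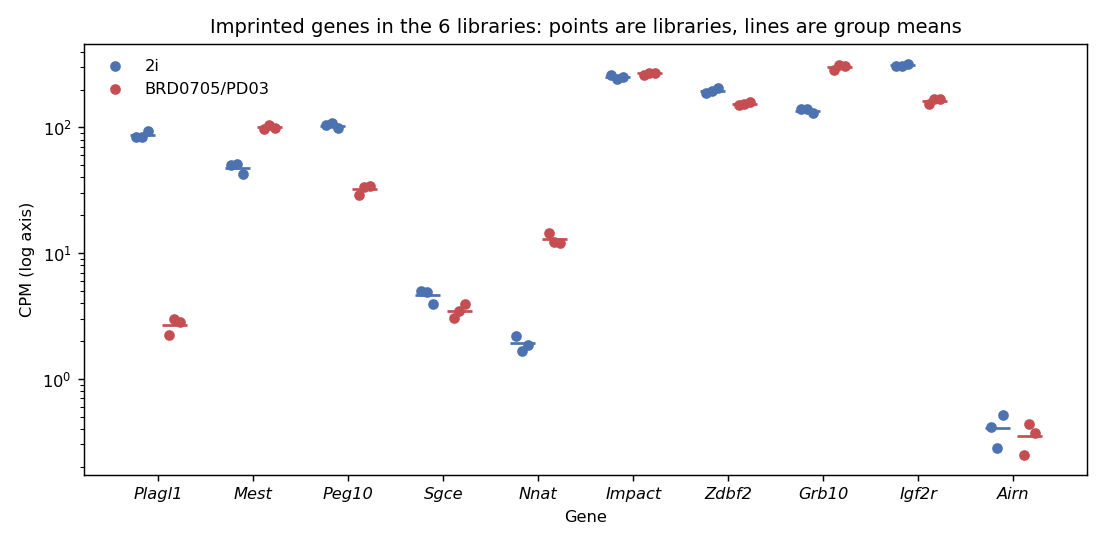
CPM of the 10 imprinted genes on a log axis, with a point for each library and a line at each group mean. Plagl1 and Nnat stand farthest apart between the groups, in opposite directions, while the points of Impact, Sgce and Airn overlap.

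Nnat and Mest moved the other way. Nnat encodes neuronatin, a small membrane proteolipid of the endoplasmic reticulum that is abundant in the developing brain (chromosome 2, 157560078 to 157562522, plus strand). It stood at 14.5, 12.3 and 12.1 CPM in BRD0705/PD03 and at 2.20, 1.68 and 1.85 CPM in 2i. The groups did not overlap, and the mean was 6.80 times higher in BRD0705/PD03 (log2 fold change 2.81 ± 0.13 SE, adjusted p = 5.56e-13). Mest, which encodes an enzyme of the alpha/beta hydrolase fold and is abundant in embryonic mesoderm (chromosome 6, 30723547 to 30748465, plus strand), had 97.5, 104 and 99.2 CPM in BRD0705/PD03 and 49.9, 50.7 and 42.8 CPM in 2i. Each BRD0705/PD03 library held more Mest RNA than any of 2i, by 2.10 times in the mean (1.06 ± 0.06 SE, adjusted p = 1.05e-10).

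Peg10 and Sgce lie head to head on chromosome 6, with starts 99 bases apart on opposite strands, and fell by different amounts. Peg10 derives from a retrotransposon and is needed for the placenta (4747306 to 4760517, plus strand). Its values were 29.1, 33.8 and 34.3 CPM in BRD0705/PD03 and 104, 108 and 98.7 CPM in 2i. Those of BRD0705/PD03 were lower throughout, by 1.68 on the log2 scale (-1.68 ± 0.06 SE, adjusted p = 5.47e-13). Sgce encodes epsilon-sarcoglycan, a membrane protein of the dystrophin-associated complex (4674350 to 4747207, minus strand). It was scarce, at 3.05, 3.45 and 3.95 CPM in BRD0705/PD03 and 4.99, 4.93 and 3.95 CPM in 2i. The groups met at the lowest 2i library, the difference was small (-0.40 ± 0.14 SE) and the adjusted p of 0.0213 was near the threshold of 0.05. When 1 library was left out, Sgce was no longer called in 4 of 6 cases: the adjusted p was 0.0862 without the first and 0.0585 without the second BRD0705/PD03 library, and 0.0768 without the first and 0.123 without the second 2i library.

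Zdbf2 and Impact, both abundant, moved little. Zdbf2 encodes a zinc-finger protein (chromosome 1, 63273265 to 63314576, plus strand). It had 150.5, 154 and 158 CPM in BRD0705/PD03 and 189.5, 194 and 205 CPM in 2i, without overlap (-0.35 ± 0.04 SE, adjusted p = 5.75e-07). Tested against a fold of 1.5, that difference did not pass. Impact encodes a regulator of the kinase GCN2, which senses lack of amino acids (chromosome 18, 12955852 to 12992950, plus strand). Its libraries held 262, 271 and 274 CPM in BRD0705/PD03 and 262, 244 and 251 CPM in 2i. One pair of libraries nearly coincided, and the difference narrowly missed the threshold (0.09 ± 0.04 SE, adjusted p = 0.0519). Impact passed as higher with median-ratio factors (adjusted p = 0.0382), upper-quartile factors (adjusted p = 0.000717), DESeq2 (adjusted p = 0.0298), no filter (adjusted p = 0.0454) and a filter at a mean of 1 CPM (adjusted p = 0.00703). It also passed without BRD0705/PD03 replicate 1 (adjusted p = 0.0218), 2i replicate 1 (adjusted p = 0.0183) or 2i replicate 3 (adjusted p = 0.0282), with log2 fold changes up to 0.16 over all these settings. With a fibroblast covariate, described below, Impact differed by 0.0041 ± 0.12 (SE, adjusted p = 0.986).

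The 2 genes known as maternally expressed in most tissues went in opposite directions. Grb10 encodes an adaptor that binds the insulin and IGF1 receptors and dampens their signal (chromosome 11, 11930508 to 12038683, minus strand). Its values were 287, 312 and 310.5 CPM in BRD0705/PD03 and 139, 139.9 and 129.5 CPM in 2i, so that each BRD0705/PD03 library held more than any of 2i (1.15 ± 0.05 SE, adjusted p = 7.70e-14). Igf2r encodes the receptor that carries IGF2 and enzymes tagged with mannose 6-phosphate to lysosomes (chromosome 17, 12682406 to 12769664, minus strand). It had 154, 168 and 169 CPM in BRD0705/PD03 and 310.0, 306 and 322 CPM in 2i. All 3 values of BRD0705/PD03 were below those of 2i, and the mean was 1.91 times higher in 2i (-0.93 ± 0.04 SE, adjusted p = 1.09e-12).

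Airn is the noncoding RNA that silences the paternal Igf2r copy in differentiated tissues by transcription across its promoter (chromosome 17, 12741311 to 12860136, plus strand). In undifferentiated ESCs Airn is known to be low and Igf2r to be expressed from both copies. Its start lay inside Igf2r, outside the exons of the latter, and the bodies overlapped by 28354 bases without sharing exon bases. The files gave 8, 12 and 15 counts of Airn in BRD0705/PD03 and 7, 14 and 13 counts in 2i, or 0.246, 0.436 and 0.368 CPM against 0.415, 0.279 and 0.513 CPM. The groups overlapped and no difference was detectable at this depth (-0.13 ± 0.40 SE, adjusted p = 0.795). No source used here says whether the counting used strand, so reads of Airn and of unspliced Igf2r RNA cannot be told apart with certainty.

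Of the 10 genes, 3 were called higher in BRD0705/PD03 (Mest, Nnat and Grb10), 5 lower (Plagl1, Peg10, Sgce, Zdbf2 and Igf2r) and 2 in neither direction. These 8 calls stand beside 61.4% of all tested genes, so a call as such is common in this comparison. By direction, 30.1% of tested genes were called higher and 31.4% lower. The groups did not overlap for 7 of the 10, against 66.0% of tested genes. The median log2 fold change was -0.24 over the 10 genes and 0.00 over all tested genes. Of the 8 genes known as paternally expressed, 2 were higher and 4 lower. Of the 2 known as maternally expressed in most tissues, 1 was higher and 1 lower. The latter, Igf2r, is known to be expressed from both copies in undifferentiated ESCs. Tested against a fold of 1.5, which 24.9% of tested genes passed, 6 of the 10 passed: Plagl1, Mest, Peg10, Nnat, Grb10 and Igf2r.

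Per kilobase of annotated exon, the order of levels changed between the media. In 2i, Impact was highest at 49.2 ± 1.82 CPM per kilobase (SD, n = 3), followed by Igf2r at 33.6 ± 0.889. Peg10 (15.5 ± 0.666), Zdbf2 (15.5 ± 0.637) and Grb10 (14.98 ± 0.638 CPM per kilobase) could not be ordered beyond the spread of their libraries, nor could Mest (12.1 ± 1.10) and Plagl1 (11.2 ± 0.751). In BRD0705/PD03, Impact again led at 52.5 ± 1.18 CPM per kilobase, followed by Grb10 at 33.4 ± 1.55, Mest at 25.4 ± 0.832 and Igf2r at 17.6 ± 0.917. Plagl1, at 0.344 ± 0.0496 CPM per kilobase, was there no longer distinct from Sgce at 0.328 ± 0.0424. Airn was lowest in both groups.

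Ratios within a library, which need no scaling between libraries, were compared for 4 pairs that overlap or share a start region. The log2 ratio of Sgce to Peg10 counts was -3.25, -3.29 and -3.11 in BRD0705/PD03 and -4.38, -4.44 and -4.64 in 2i, a difference of 1.27, so the balance of the head-to-head pair moved toward Sgce. Nnat lies in an intron of Blcap, a gene first found in bladder cancer, on the opposite strand. The ratio of Nnat to Blcap stood at -0.69 ± 0.15 (SD, n = 3) against -3.12 ± 0.22, with Blcap itself called higher at 20.95 ± 0.555 against 16.7 ± 0.729 CPM. Mest and Copg2, which encodes a coat protein of Golgi vesicles, share 912 exon bases at their ends on opposite strands. Copg2 was not called (-0.07 ± 0.05 SE, adjusted p = 0.191), and the ratio of Mest to Copg2 was 0.27 ± 0.06 against -0.87 ± 0.15. The ratio of Airn to Igf2r was -8.84 ± 0.34 against -9.58 ± 0.42, a difference of 0.73 that rested on the 7 to 15 counts of Airn per library. None of the 4 ratios overlapped between the groups, and for single genes 66.0% of all tested did not overlap. Each pair held a called gene. The Airn/Igf2r groups nearly met, at -9.199 in BRD0705/PD03 and -9.24 in 2i. Of that pair only Igf2r was called. The exact permutation test, two-sided, gave p = 0.10 for each (0.10 after adjustment over the 4 pairs), the smallest value that 3 libraries against 3 allow.

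**Figure D2:**
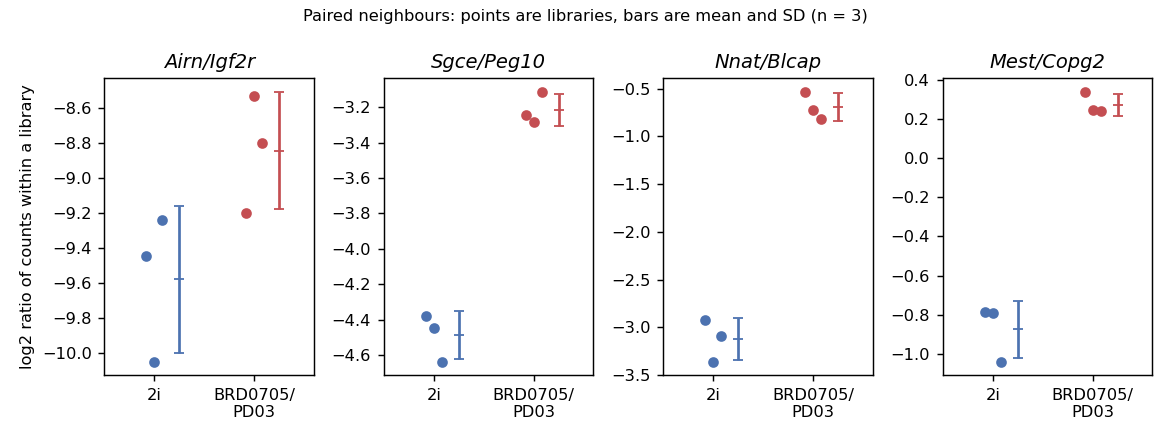
Log2 ratio of counts within each library for 4 gene pairs, each panel on its own axis, with points for libraries and bars for mean and SD (n = 3 per group). In every panel the 3 BRD0705/PD03 points lie above the 3 points of 2i, by 0.73 for Airn/Igf2r up to 2.43 for Nnat/Blcap.

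Genes around the 10 moved in both directions. Within 250 kb, 54 further genes were tested, of which 22 were higher and 17 lower, with a median of 0.15. Over all tested genes, 30.1% were called higher and 31.4% lower. Near Plagl1, the largest difference among 6 neighbours was that of Stx11, a syntaxin of secretory granules (0.95, adjusted p = 0.00333). Utrn, the utrophin gene, was also higher (0.54), while Sf3b5, Ltv1 and Phactr2 were lower at -0.39, -0.25 and -0.45. Around Peg10 and Sgce, the neighbours Casd1 (18.4 ± 1.11 against 8.70 ± 0.476 CPM) and Ppp1r9a (38.6 ± 1.33 against 24.8 ± 1.32 CPM) and the collagen gene Col1a2 were higher, against the direction of Peg10 itself. Around Mest, Tmem209 and Cep41 were higher by 0.18 and 0.38.

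Beside Nnat, the kinase gene Src (-1.38), Manbal (-1.07), Rpn2 (-0.25), the noncoding RNA Platr27 (-1.07) and the pseudogene Gm14287 (-0.32) were lower, and Ctnnbl1 was higher (0.61). Gm23134, a miRNA model that overlaps Nnat, was called higher at 0.784 ± 0.0669 against 0.020 ± 0.035 CPM, on 3 counts in 2i, all in 1 library. Beside Grb10, the enzyme gene Ddc was lower at 6.28 ± 0.304 against 17.3 ± 0.351 CPM (-1.46 ± 0.08 SE), as were Cobl (-0.91) and the antisense model 1700042O10Rik (-3.04), while Ikzf1 (0.65) and Fignl1 (0.16) were higher. Grb10 and its neighbour Ddc thus differed in opposite directions. Around Impact, Ttc39c (-0.91) and Osbpl1a (-0.14) were lower.

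Downstream of Zdbf2, Adam23, a cell adhesion gene, rose from 6.47 ± 0.619 CPM in 2i to 145 ± 6.63 CPM in BRD0705/PD03 (4.47 ± 0.07 SE, adjusted p = 6.05e-20), a far larger difference than that of Zdbf2. Platr12, a noncoding gene whose annotated start lies close to the upstream start that RefSeq gives Zdbf2, was slightly lower (-0.30, adjusted p = 0.0370). Ndufs1 (0.20), Eef1b2 (0.22), Snora41 (0.60) and Gm27390 (0.74) were higher, and Gm20342 was lower (-0.54). Near Igf2r and Airn, Slc22a3, a cation transporter gene that Airn silences in placenta, had 74 counts over the BRD0705/PD03 libraries and 0 over those of 2i. Against a floor of 3 counts over the 2i group it was at least 22.6-fold higher in BRD0705/PD03, at only 0.746 ± 0.0867 CPM. Mrpl18 (0.26), Acat3 (0.69) and Unc93a (1.09) were higher, and Acat2 (-0.49) and Wtap (-0.14) lower.

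**Figure D3:**
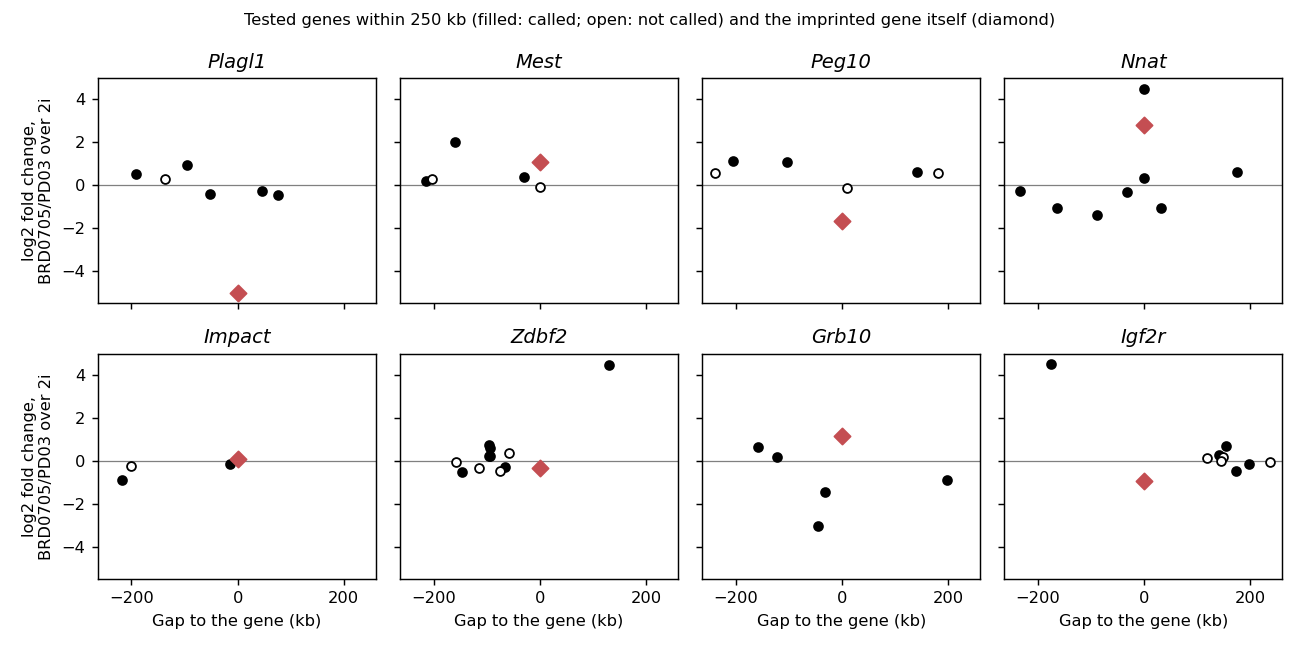
Log2 fold change of BRD0705/PD03 over 2i for tested genes within 250 kb of 8 imprinted genes (circles, filled where called) against the gap between gene bodies in kb, with the imprinted gene as a diamond at 0. Slc22a3, with 0 counts in 2i, is drawn at its lower bound of 4.50, and Gm23134, with 3 counts in 2i, at a fitted value that is no bound. The diamond of Plagl1 at -5.02 lies far below its neighbours, and Adam23 at 4.47 far above Zdbf2.

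Of 20 genes known as partners of these imprinted clusters, 13 were tested, 8 were higher and 3 lower, with a median of 0.64 (the median stays at that value with Slc22a3 at its bound). For this and every list below, the calls stand beside 30.1% of all tested genes called higher and 31.4% called lower. The called genes of this list with the smallest p were Adam23, Ddc, Casd1 and Ppp1r9a, given above. A list of 21 further imprinted genes outside chromosomes 7 and 12 had 17 tested, 8 higher and 7 lower, with a median of -0.01. Qpct, which encodes an enzyme that forms pyroglutamate, was lower at 1.99 ± 0.330 against 28.0 ± 0.447 CPM (-3.80 ± 0.10 SE). Zrsr1, a splicing factor retrogene, was lower at 19.2 ± 1.13 against 45.7 ± 1.26 CPM (-1.25 ± 0.06 SE), as was the amino acid transporter gene Slc38a4 (-0.72 ± 0.04 SE). Gnas, which encodes a stimulatory G protein subunit, was higher (0.72 ± 0.04 SE).

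For comparison, 20 imprinted genes of chromosomes 7 and 12 were all tested, with 13 higher, 2 lower and a median of 1.34. Rian, a noncoding RNA of the Dlk1 cluster, stood at 1032 ± 50.05 against 187 ± 13.04 CPM and Mirg of the same cluster at 126 ± 7.21 against 22.04 ± 2.05 CPM. Cdkn1c, a cell cycle inhibitor gene, stood at 14.6 ± 1.79 against 0.502 ± 0.0811 CPM, and Peg3, a zinc-finger gene, at 681 ± 10.8 against 295 ± 7.33 CPM. The 2 lower were Kcnq1ot1, at 203 ± 19.3 against 363 ± 42.7 CPM, and Ndn, at 11.15 ± 0.652 against 15.55 ± 1.55 CPM. The other 5 were not called. The difference between these lists was not tested.

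Genes that set, keep or remove the methylation of imprints differed as well. Of 15 tested, 9 were higher and 5 lower, with a median of 0.13. The de novo methyltransferase genes Dnmt3a (148 ± 8.53 against 28.9 ± 0.659 CPM) and Dnmt3b (477 ± 21.8 against 119 ± 3.92 CPM) were higher, as was Dppa3 (66.8 ± 3.50 against 12.7 ± 0.736 CPM), which protects imprints after fertilization. Tet2, which oxidizes methylcytosine, was lower at 68.3 ± 4.12 against 211 ± 6.58 CPM. Genes of the same 2 families did not all move alike, as these show, named after their values were seen. Tet1 was higher at 666 ± 11.0 against 504 ± 24.5 CPM, Dnmt3l was lower (-0.23 ± 0.05 SE) and Dnmt1 was not called. Uhrf1, of the same list, was lower (-0.20 ± 0.05 SE). Zfp57, chosen for mention after its value was seen, was lower at 190 ± 5.93 against 272 ± 7.23 CPM (-0.52 ± 0.04 SE), and Trim28, likewise, was higher at 1915 ± 51.1 against 1411 ± 20.1 CPM (0.44 ± 0.04 SE).

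Along the IGF and insulin axis, on which the proteins of Grb10 and Igf2r act, 8 of 12 tested genes were higher and 2 lower, with a median of 0.31. Irs1, an adaptor of the insulin receptor, stood at 8.81 ± 0.631 against 1.95 ± 0.299 CPM (2.19 ± 0.13 SE). The receptor gene Insr was lower (-0.74 ± 0.06 SE) and Igf1r higher (0.51 ± 0.05 SE). M6pr, the other receptor for mannose 6-phosphate, was lower like Igf2r but by less, at 168 ± 4.92 against 234 ± 6.66 CPM (-0.48 ± 0.04 SE).

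**Figure D4:**
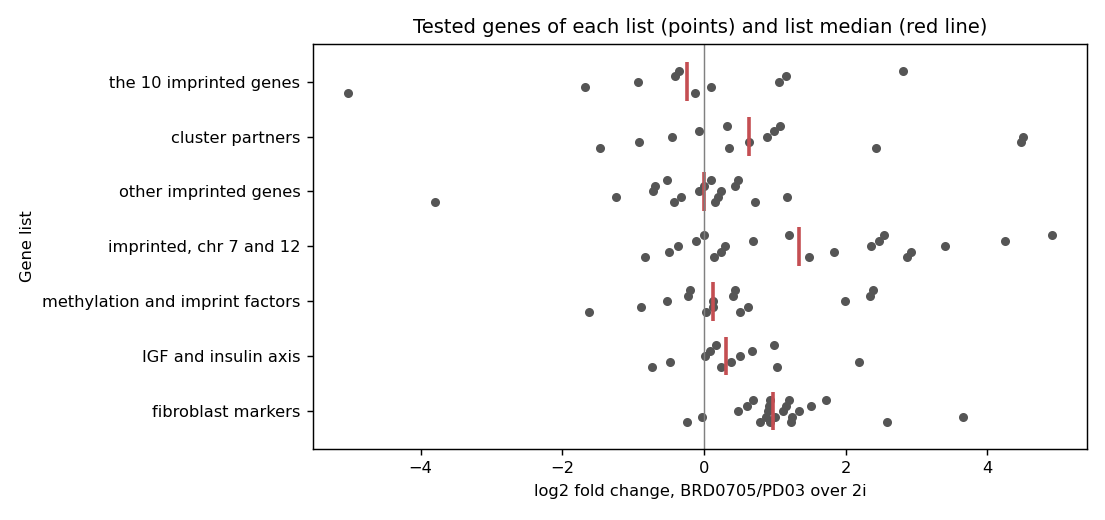
Log2 fold change of BRD0705/PD03 over 2i for the tested genes of 7 lists, with a red line at each list median and Slc22a3 drawn at its lower bound. The 10 imprinted genes reach from -5.02 to 2.81 around a median of -0.24, while the chromosome 7 and 12 list has its median at 1.34 and the fibroblast list at 0.97.

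Fibroblasts, the usual feeder cells of ESC cultures, express several imprinted genes, and their markers moved with the groups. Of 22 fibroblast markers, 18 were higher in BRD0705/PD03 and 0 lower (median 0.97), and their summed level was 2167 to 2859 CPM in BRD0705/PD03 and 1599 to 1643 CPM in 2i. None of the 22 was at 0 in all libraries. Acta2, Tagln, S100a4 and Vim were the members with the smallest p, and Col1a2 stood at 307 ± 62.6 against 142 ± 4.66 CPM. In bulk RNA, fewer cells of a type and less RNA per cell cannot be told apart. With the mean level of 5 fibroblast genes (Col1a1, Col1a2, Col3a1, Lum and Postn) as a covariate, 7 of the 10 imprinted genes were called, beside 26.0% of all tested genes. That level was 6.13 to 6.70 in BRD0705/PD03 and 5.45 to 5.50 in 2i (mean log2 of CPM plus 1). The covariate thus nearly follows the medium, and the fit separates them poorly. In that fit Mest differed by 1.06 ± 0.17 (SE), Grb10 by 0.99 ± 0.13 and Nnat by 3.22 ± 0.28. Plagl1 differed by -5.63 ± 0.31 (SE), Peg10 by -2.03 ± 0.16, Igf2r by -1.16 ± 0.13 and Zdbf2 by -0.48 ± 0.12. Sgce lost its call (-0.96 ± 0.42 SE, adjusted p = 0.102).

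**Figure D5:**
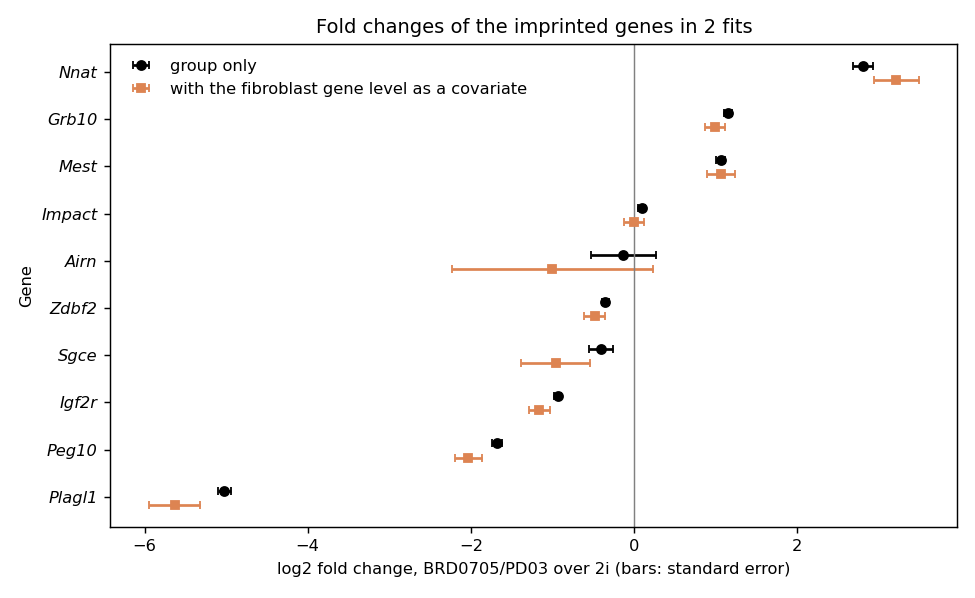
Log2 fold change of BRD0705/PD03 over 2i with standard errors for the 10 imprinted genes, without (black circles) and with (orange squares) the fibroblast covariate. Nnat, Grb10 and Mest stay above 0 and Plagl1, Peg10, Igf2r and Zdbf2 below 0 in both fits, and the bars widen with the covariate.

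Markers of other cell types that could be present summed higher in BRD0705/PD03, although each list also had members called lower. Primitive endoderm markers summed to 8.07 to 9.37 CPM in BRD0705/PD03 and 6.36 to 6.59 CPM in 2i. Of 7 tested, 4 were higher (Dab2, Foxa2, Cubn and Pdgfra) and 1 was lower (Gata4, at 0.552 against 0.9975 CPM). Gata6 and Sox7 were not called. The log2 fold change of Cubn was not called without BRD0705/PD03 replicate 2 (0.95, adjusted p = 0.0662), nor the log2 fold change of Pdgfra without replicate 3 (0.40, adjusted p = 0.0714). Trophoblast markers summed to 62.4 to 65.5 against 43.6 to 50.2 CPM, with 4 of 6 tested higher, among them Krt8, Krt18 and Eomes, and 1 lower, Gata3. Krt8 stood at 6.83 against 0.779 CPM and Krt18 at 7.03 against 1.10 CPM, while Gata3 stood at 0.390 against 3.29 CPM. Neural markers summed to 239 to 240.5 against 172 to 180.3 CPM. Of 7 tested, 5 were higher, among them Pax6, Ncam1, Map2 and Nes. The 2 lower were Sox1 (-0.51) and Tubb3 (-0.16). Pax6 differed by 5.26 ± 0.16 (SE) on the log2 scale, at 13.1 ± 0.242 against 0.363 ± 0.0969 CPM. Of 8 ESC genes, 1 was higher (Zfp42) and 6 lower, among them Tbx3, Klf4 and Nanog, with a median of -0.79. The part of any of these cells in the differences of the imprinted genes was not tested beyond the fibroblast covariate.

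The genes whose pattern over the 6 libraries was most like that of Plagl1 were sought among 10251 named genes that averaged 5 CPM or more, by the root mean square distance between log2 values (CPM plus 0.5) centred over the libraries. The nearest were Nxf3, an RNA export factor gene (distance 0.15), Pramel6 (0.15) and Cd3g (0.17), which stood at 24.95, 13.01 and 11.9 CPM in 2i and at 0.400, 0.0611 and 0.0242 CPM in BRD0705/PD03. At such low levels the added 0.5 CPM sets much of the distance: the fitted log2 fold changes of Nxf3 (-5.95), Pramel6 (-7.69) and Cd3g (-8.97) were farther from 0 than that of Plagl1, and the last 2 rested on 6 and 2 counts over the BRD0705/PD03 libraries. Those nearest to Igf2r were Abhd2 (0.026), Fmr1 (0.027) and Nceh1 (0.028), with means of 69.6, 152 and 18.1 CPM in BRD0705/PD03 and 137, 284 and 35.5 CPM in 2i. These distances are dominated by the difference between the 2 groups of libraries.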

How the data were processed

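The authors deposited 1 table per library with whole numbers for gene symbols. The submitters' processing notes name Salmon and mm10, so these deposited values were read as estimated counts rounded to integers, with no scaling across libraries. Which annotation was used, whether strand was, and how transcripts were added up to genes is stated by no source used here. Such counts pool all promoters and transcripts of a gene.

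Groups came from the sample titles. The test of the counts was that of edgeR 4.0.16, run in R 4.3.3 (filterByExpr, TMM, robust quasi-likelihood test, group as the only term), with Benjamini-Hochberg adjustment over 20422 genes and a threshold of 0.05. CPM use effective library sizes, errors of fold changes are the fold change over the square root of F, and tests were two-sided. Ratios used a pseudocount of 0.5 counts, and centred log2 CPM used 0.5 CPM. Positions and exon lengths came from GENCODE M21 (GRCm38), where 51945 symbols matched 1 gene. No pair within a group agreed within sampling noise (chi-square per degree of freedom 2.77 to 9.84). The genes and lists were chosen with earlier results of these data known. Named were the 10 imprinted genes, their pair partners, up to 4 called genes of each list with the smallest p, called genes within 250 kb (1 of which is not reported here), and the 3 genes nearest in pattern to Plagl1 and Igf2r. One listed imprinted gene had no row under its symbol and is not analysed here.

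On simulated counts for BRD0705/PD03 against 2i over 19979 genes, the right sign was called for 62% of 50 genes given a 1.5-fold change and 77.6% of 49 given a 2-fold change, and 2.88% of its calls were unchanged genes. Further fits used DESeq2 1.42.0, upper-quartile or median-ratio factors, no filter or a mean of 1 CPM, a minimum fold of 1.5, a replicate block, omission of X and Y genes, a fibroblast covariate and all libraries but 1.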

Additional observations from a re-analysis of the deposited data

How the results depend on the processing

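Over 15 alternatives, Plagl1, Mest, Peg10, Nnat, Grb10 and Igf2r kept their direction and their call. Their log2 fold changes ranged from -5.63 to -4.91 for Plagl1, 1.00 to 1.14 for Mest, -2.03 to -1.60 for Peg10, 2.71 to 3.22 for Nnat, 0.99 to 1.22 for Grb10 and -1.16 to -0.87 for Igf2r. Zdbf2 lost its call only against a fold of 1.5. Sgce also lost its call with DESeq2 (adjusted p = 0.0779) and upper-quartile factors (adjusted p = 0.0506) and against a fold of 1.5. The log2 fold change of Airn, not called in any fit, turned to 0.057 without BRD0705/PD03 replicate 1 and to 0.11 without 2i replicate 3, and without 1 library ranged from -0.42 to 0.11. It was not tested at a mean of 1 CPM, which it did not reach. Pdgfra turned to -0.088 with the fibroblast covariate and lost its call. With that covariate, calls were also lost for Blcap (log2 fold change 0.28, 0.33 without it), Cubn (0.93, from 1.26), Dab2 (0.50, from 1.01), Eomes (0.71, from 0.80) and Vim (0.34, from 0.61), and Blcap, Cubn, Eomes, Igf1r, M6pr, Nes, Pdgfra, Ppp1r9a and Vim against a fold of 1.5. Without a library, 7 to 9 of the 10 genes were called.

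Same-numbered libraries deviated from their group means with correlations of -0.09, 0.09 and -0.04, and the labels tie the numbers to nothing shared, so the numbers do not pair the libraries. With the replicate number as a block, 12435 genes were called, against 12544 without it, and 8 of the 10 imprinted genes. Not every library correlated best with its own number.

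All calls together fell to 5094 (2498 higher, 2596 lower) against a fold of 1.5 and to 5301 (2343 higher, 2958 lower) with the fibroblast covariate. The covariate fit leaves fewer degrees of freedom, and the covariate itself did not overlap between the groups. Called members, against a fold of 1.5 and with the covariate, numbered 7 and 7 for cluster partners, 5 and 7 for other imprinted genes, 3 and 5 for the IGF and insulin axis, 2 and 1 for primitive endoderm, 3 and 3 for trophoblast and 4 and 4 for neural markers. The methylation and imprint factors had 5 called against a fold of 1.5, the fibroblast markers 5 with the covariate, which is built from 5 of them, and primitive endoderm 2 at a mean of 1 CPM. Without X and Y genes, 0 Y-linked genes were called, since none was tested. The ratios without 1 library differed between the groups by 0.50 to 0.91 for Airn/Igf2r, 1.197 to 1.33 for Sgce/Peg10, 2.31 to 2.53 for Nnat/Blcap and 1.06 to 1.19 for Mest/Copg2. Depth limits Airn most, at 7 to 15 counts per library.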

Other observations

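Several imprinted genes lie inside a host gene, a set picked after its values were seen. Mcts2, a translation factor retrogene inside H13 on the same strand, was lower at 13.7 ± 0.643 against 21.96 ± 1.203 CPM (SD, n = 3 per group), while H13, a signal peptide peptidase gene, was higher at 30.2 ± 1.06 against 21.7 ± 0.727 CPM. Their log2 ratio of counts was -1.14, -1.08 and -1.202 in BRD0705/PD03 and -0.12, 0.13 and 0.04 in 2i. Zrsr1, inside Commd1 on the opposite strand, was lower and its host, a copper metabolism gene, was higher (41.6 ± 1.01 against 30.7 ± 2.40 CPM), and their ratio went from 0.58 ± 0.13 in 2i to -1.11 ± 0.06 in BRD0705/PD03. Nnat inside Blcap went the other way, with a ratio that was 2.43 higher in BRD0705/PD03. Peg13 inside Trappc9 did not separate the groups, at -3.19 ± 0.28 against -2.91 ± 0.12. The ratios of the first 3 pairs did not overlap between the groups, beside 66.0% of single tested genes that did not overlap. Of the 4 pairs only Nnat/Blcap was tested (two-sided exact permutation test, p = 0.10, the smallest that 3 libraries against 3 allow).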
